A study of Homo sapiens with 21 samples.

Results

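Gene deserts are long stretches of chromosome that hold no protein-coding gene. In many genomes they lie beside genes of development and of the nervous system, and some hold enhancers that act on a promoter far away, while others hold little that is known to be used. ATAC-seq uses a transposase that inserts adapters into accessible DNA, and shows which stretches of a desert are open in a given cell type. Microglia are the resident macrophages of the brain, and TREM2, SORL1, CD33 and INPP5D are genes linked to the risk of Alzheimer's disease.

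The regions described here were called in ATAC-seq of microglia-like cells made from the H9 human embryonic stem cell line over 28 days of microglial differentiation, with 80000 cells sorted per line. There were 7 isogenic lines with 3 libraries each. The 6 edited lines carried, in homozygous form, the TREM2 R47H allele (TREM2-R47H), a TREM2 knockout (TREM2-KO), the SORL1 A528T allele (SORL1-A528T), SORL1 R744X (SORL1-KO), the disease-associated allele of a CD33 SNP (CD33 SNP) and the A allele of an INPP5D SNP (INPP5D SNP), for which unedited H9 is heterozygous. The seventh line is labelled WT. The SORL1-A528T libraries were grouped by their titles, since their genotype label reads TREM2-KO. The edited lines were picked as clones, and the labels do not say whether the 3 libraries of a line are separate differentiations; p-values here therefore cover only the spread between libraries, which may be technical.

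A gene-desert region was a called stretch of an autosome more than 500 kb from the span of any protein-coding gene. Peaks of all 21 libraries that shared at least 1 bp were merged, and 10104 of 160166 autosomal regions (6.31%) met that distance; the other 150062 regions are called the rest. These 10104 regions held 54663 of 1542833 autosomal peaks (3.54%). The 3 regions just inside the limit lay 500023, 500050 and 500050 bp from a gene and were called in 9, 1 and 19 libraries, and the 3 just outside lay 499993, 499902 and 499889 bp away and were called in 21, 11 and 21. The median distance to a gene was 775.6 kb; 2960 regions were more than 1 Mb away, 1067 more than 1.5 Mb and 414 more than 2 Mb.

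Depth, per the file headers, was 12.8 to 67.4 M tags per library and followed the replicate number: 56.5 to 67.4 M in replicate 1, 12.8 to 17.5 M in replicate 2 and 32.6 to 52.9 M in replicate 3. The lists held 39736 to 102891 peaks. A gene end within 1 kb of a region called in all 21 libraries was found for 10 of 13 markers of microglia and macrophages, among them SPI1, CSF1R, CX3CR1, P2RY12 and C1QA, while TREM2 had one in 20 libraries, AIF1 in 18 and TMEM119 in none. It was found for 0 of 6 markers of pluripotent stem cells and 0 of 5 of erythroid and megakaryocytic cells. It was also found for 0 of 4 markers of endothelial cells, 1 of 6 of neurons and neural progenitors (NEUROG2) and 1 of 5 of T and B cells (CD3E). Some markers of these other cell types had one in fewer libraries. These were CD2 in 20, PECAM1 in 18, ITGA2B in 15, TEK in 14, ZFP42 in 10, PAX5 in 8 and PRDM14 in 7, among others. TREM2-KO replicates 2 and 3 stood apart from the other libraries in desert calls: 813 and 811 desert regions were called in these libraries alone, against 49 to 417 in each of the other 19.

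Protein-coding genes are absent by definition, but 9 windows around the start of a non-coding RNA lay wholly inside a desert region called in all 21 libraries. The 5 sequences below, picked from these 9 after their letters and regions had been seen, show the transcript starts that lie in the most recurrent desert regions. They are RefSeq promoter windows of GRCh38.p14, from 250 bases before to 50 bases after the annotated start, 5′ to 3′ on the strand of the gene. LINC00662 and LINC02987 start on opposite strands of chromosome 19, at chr19:27793891-27794190 (minus) and chr19:27793645-27793944 (plus), inside the region chr19:27792670-27795073. LINC03051 is at chr3:117997530-117997829 (minus), LINC02394 at chr12:74021830-74022129 (plus) and LOC101927573 at chr10:107689314-107689613 (plus). Capitals mark matches, on either strand, to the PU.1 motif GAGGAAGT, the AP-1 motif TGANTCA, the TATA box TATAAA and the GC box GGGCGG.
LINC00662: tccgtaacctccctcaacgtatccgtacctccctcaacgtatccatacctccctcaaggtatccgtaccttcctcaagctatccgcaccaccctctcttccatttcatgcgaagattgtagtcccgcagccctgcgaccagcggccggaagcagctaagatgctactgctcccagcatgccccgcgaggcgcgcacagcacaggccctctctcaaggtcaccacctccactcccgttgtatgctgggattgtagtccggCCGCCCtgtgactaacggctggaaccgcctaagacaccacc
LINC02987: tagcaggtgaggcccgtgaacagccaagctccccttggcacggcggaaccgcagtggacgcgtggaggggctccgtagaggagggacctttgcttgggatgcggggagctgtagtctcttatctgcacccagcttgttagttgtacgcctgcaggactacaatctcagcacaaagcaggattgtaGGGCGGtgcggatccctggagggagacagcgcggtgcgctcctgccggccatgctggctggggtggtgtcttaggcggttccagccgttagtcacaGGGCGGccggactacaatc
LINC03051: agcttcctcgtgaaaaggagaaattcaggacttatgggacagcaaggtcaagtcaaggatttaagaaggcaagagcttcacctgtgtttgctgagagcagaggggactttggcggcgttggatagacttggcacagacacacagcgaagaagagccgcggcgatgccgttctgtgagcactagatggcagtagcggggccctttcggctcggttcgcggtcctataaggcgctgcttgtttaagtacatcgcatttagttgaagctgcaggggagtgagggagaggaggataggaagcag
LINC02394: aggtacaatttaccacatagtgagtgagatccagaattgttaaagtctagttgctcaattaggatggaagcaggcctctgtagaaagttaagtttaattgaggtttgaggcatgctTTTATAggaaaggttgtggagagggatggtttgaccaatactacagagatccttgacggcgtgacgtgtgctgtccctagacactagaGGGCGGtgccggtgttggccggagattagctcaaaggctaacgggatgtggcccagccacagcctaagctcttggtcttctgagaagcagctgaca
LOC101927573: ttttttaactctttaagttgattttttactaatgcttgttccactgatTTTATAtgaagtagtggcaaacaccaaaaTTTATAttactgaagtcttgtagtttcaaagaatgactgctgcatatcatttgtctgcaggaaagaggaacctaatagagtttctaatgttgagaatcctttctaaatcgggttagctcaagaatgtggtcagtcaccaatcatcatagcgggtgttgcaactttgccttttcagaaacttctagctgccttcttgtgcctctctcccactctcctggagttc

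The 5 windows held no match to the PU.1 or AP-1 letters. Of 35116 human promoter windows of the same length, 2.59% held the first and 7.71% the second. Among the 12918 windows of non-coding genes these shares were 2.51% and 10.4%, so no match in 5 windows is common. LINC00662 had 1 GC box and the LINC02987 window shown had 2. They held 20 and 19 CG pairs, which is above the median of 5 over the windows of non-coding genes. Over all promoter windows the median was 14 with quartiles of 4 and 28, so both lay within the middle range there. LINC02394 had 1 TATA box and 1 GC box, and LOC101927573 had 2 TATA boxes and no GC box at a GC content of 37.7%. Over all windows 11.5% held the TATA box and 45.0% the GC box, and over those of non-coding genes 15.1% and 25.5%. LINC03051 held no match to any of the 4. The matches describe the letters only, and no match says only that these letters are absent from the window.

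Most desert regions were called in few libraries. Of the 10104, 4842 (47.9%) were called in 1 library, 4612 (45.6%) in 2 to 20 and 650 (6.43%) in all 21, against 24.3%, 59.8% and 15.9% of the rest. Within the middle class, 2681 desert regions (26.5%) were called in 2 to 6 libraries, against 23.03% of the rest, and 803 (7.95%) in 15 to 20, against 18.6%. Without TREM2-KO replicates 2 and 3, an alternative added after seeing the data, 8360 desert regions remained called; 46.3% of them were called in 1 library and 7.85% in all 19, against 23.1% and 17.04% of the rest.

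**Figure D1:**
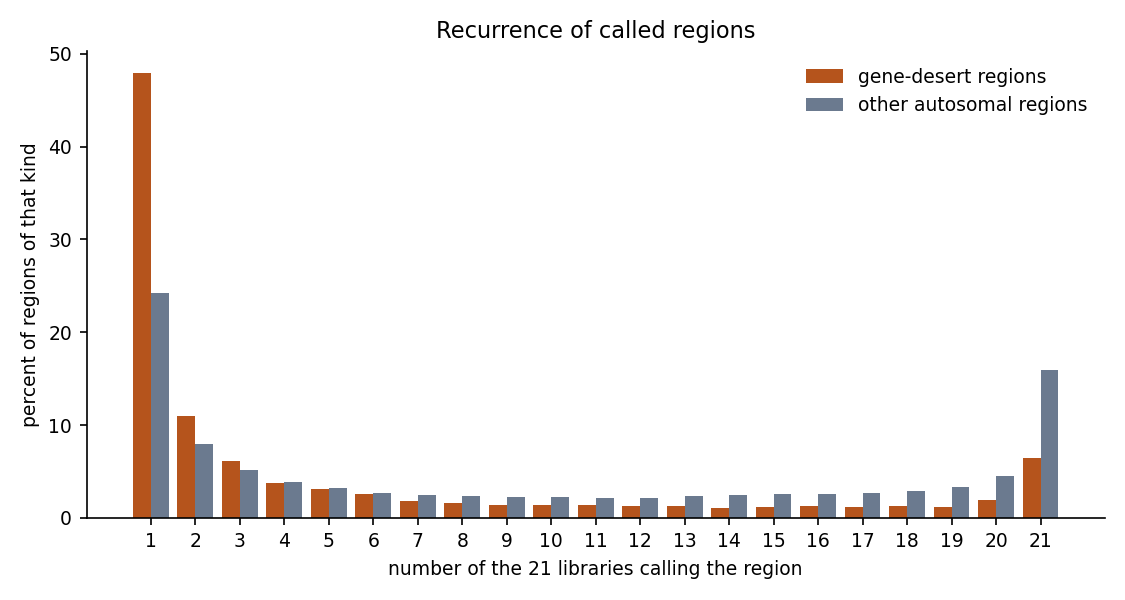
Percent of gene-desert regions and of the other autosomal regions (y axis) by the number of the 21 libraries that called the region (x axis). The desert bars stand above the others at 1 library (47.9% against 24.3%) and below them at 21 (6.43% against 15.9%).

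The fall in recurrence was already present nearer to genes. The share of regions called in 1 library was 20.9% within gene spans, 23.4% up to 100 kb away and 37.1% from 100 to 500 kb, and then 46.1% at 500 to 750 kb, 50.4% at 750 to 1000 kb, 52.0% at 1000 to 1500 kb and 43.2% beyond 1500 kb. The share called in all 21 was 19.3%, 12.98% and 9.92% in the 3 nearer bins and 6.66%, 5.995%, 6.71% and 5.90% in the 4 desert bins. Within deserts the share called in all 21 thus ranged over less than 1 percentage point. The last bin depended on gaps that hold a centromere or the short arm of an acrocentric chromosome: without them 49.6% of its 593 regions were called in 1 library and 7.42% in all 21.

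**Figure D2:**
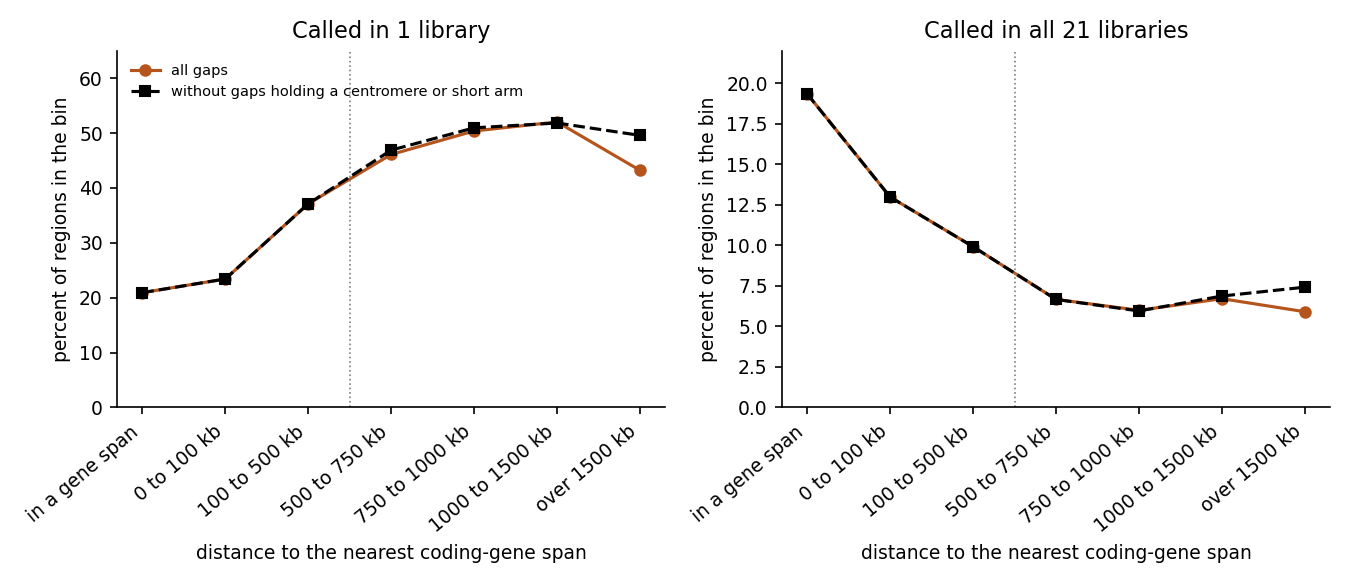
Percent of regions called in 1 library (left) and in all 21 libraries (right) by distance to the nearest span of a protein-coding gene, in all gaps and without the gaps that hold a centromere or short arm. Bins right of the dotted line are gene deserts; there 43.2% to 52.0% of regions were called in 1 library.

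Library by library, the peaks in deserts were narrower, were shared with fewer other libraries and stood later in the peak lists than the rest. Median peak width in deserts was 501 to 630 bp over the 21 libraries, against 626 to 775 bp for the rest. A width of at most 501 bp was found for 38.4% to 62.3% of desert peaks and 26.3% to 48.3% of the rest. Each desert region of a library was called in 8.34 to 15.4 other libraries on average, against 13.1 to 18.2 for the rest; the desert value was the lower one in 20 libraries, and TREM2-R47H replicate 1 had 14.3 against 14.1. The place in the list is given as a percentile in which the first peak is at 100. Desert peaks had medians of 31.9 to 40.5 and the rest 50.3 to 51.2, and these ranges did not overlap. By what measure the lists are sorted is not stated in the labels or headers; the first 10% of each list had median widths of 1404 to 2088 bp and the last 10% had 501 bp.

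Averaged per line, the desert minus rest difference was -89.7 bp in peak width, -2.57 in the number of other libraries and -14.3 in percentile. All 7 lines had the same direction in each of the 3 measures. The exact permutation test over lines, two-sided, gave p = 0.0156 for each, which is the smallest that 7 lines allow. The adjusted p of that test over the 3 measures was 0.0156. The 7 differences are not independent, since the lines share the same merged regions. The number of other libraries is also taken from the calls of the other lines. The 3 measures are linked, as peaks late in the lists are narrow, so they are not separate lines of evidence. By line, the width difference ran from -102 bp in CD33 SNP to -57.3 bp in SORL1-KO. The difference in other libraries ran from -4.14 in TREM2-KO to -0.97 in TREM2-R47H, and that in percentile from -16.4 in SORL1-A528T to -11.3 in SORL1-KO.

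**Figure D3:**
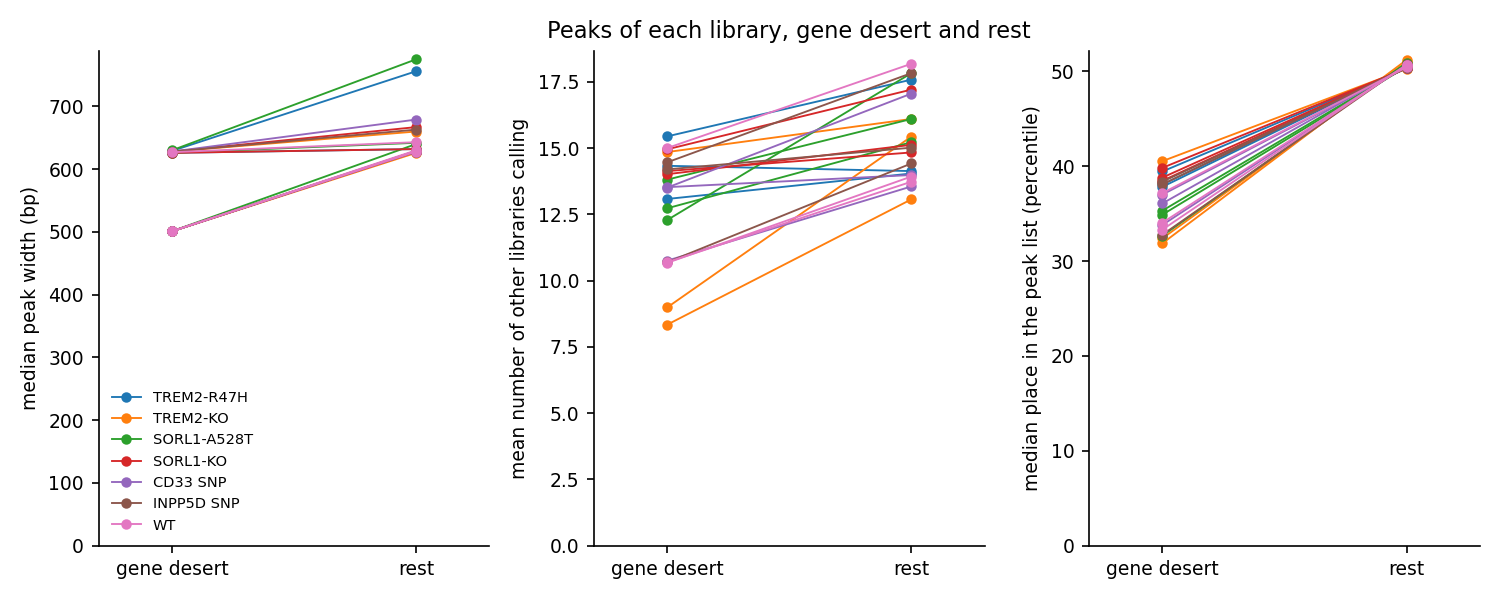
For each of the 21 libraries, the median peak width, the mean number of other libraries calling the same region and the median place in the peak list (percentile, first peak at 100), for peaks in gene deserts and for the rest; lines join the values of a library and colours give the line. The desert value is the lower one for width and place in every library, and for the number of other libraries in 20 of 21.

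As merged regions, desert regions had a median width of 598 bp against 750 bp for the rest. Those called in 1 library had a median of 501 bp in both, and 89.6% of the desert ones and 88.4% of the others were exactly 501 bp wide. Desert regions called in all 21 had a median of 1179 bp, against 1594 bp for the rest called in all 21 and 1299 bp for those 100 to 500 kb from a gene. Merging widens a region as more libraries call it, so width and recurrence are linked by construction. Only 44 desert regions were wider than 5 kb, and 40 of these lay in centromere or short-arm gaps.

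The 650 regions called in all 21 libraries were spread over 184 of the 283 gaps between genes that held any desert region (65.02%). Of them 53 lay in the 23 gaps that hold a centromere or short arm and 597 elsewhere; these 23 gaps were marked after the positions of regions had been seen. The earliest in the lists were mostly near centromeres: of 14 regions whose median place was within the first 1%, 12 lay in such gaps. The first was chr17:22520925-22525083 (4159 bp), between KCNJ18 and WSB1, with percentiles of 99.99 to 100 in the 21 libraries. It overlaps MTRNR2L1 and MTND1P15, nuclear copies of mitochondrial sequence, and reads from such copies cannot always be told from mitochondrial reads. On chromosome 21, chr21:8433593-8436803 overlaps RNA45SN1, a unit of the ribosomal RNA repeat on a short arm, and MIR10396B; its percentile ranged from 91.4 to 100 with a median of 99.8. The widest was chr10:41873018-41916463, 43446 bp, at 98.3 to 100 with a median of 100. Chromosome 19 had the LINC00662 and LINC02987 region printed above, 1410 kb from the nearest coding gene, at 99.2 to 99.8 with a median of 99.6. How the repeats of these gaps bear on the calls was not tested.

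Outside the centromere gaps, 2 regions were in the first 1%. One of them, chr2:89826129-89841563 (15435 bp), lies in the IGK immunoglobulin locus, whose segments do not count as protein-coding genes in the table used; its percentile was 96.0 to 100.0. The other was chr2:194103989-194106104 (2116 bp), 1507 kb from the nearest gene between TMEFF2, a transmembrane protein with follistatin-like domains, and SLC39A10, a zinc transporter. Its percentile ran from 96.8 to 99.7 with a median of 99.03, and no RefSeq non-coding gene overlaps it. Next came chr3:117035310-117037404, between the adhesion molecules LSAMP and IGSF11, with a median of 98.8 and a range of 97.6 to 99.5. It overlaps LOC124909415, and the LINC03051 start lies in the same gap, in a region at 61.6 to 90.9.

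Several of the other early regions lay far from any gene. The region chr4:179397742-179399607 was 1955 kb away, between AGA, a lysosomal hydrolase, and TENM3, a teneurin of neuronal adhesion, with a median percentile of 98.2 (94.8 to 99.01). The region chr4:32569169-32570933 was 1422 kb away between PCDH7, a protocadherin, and ARAP2, with a median of 98.2 (95.8 to 99.2). In the EDEM1 and GRM7 gap, chr3:5974067-5975815 was 754 kb away and had a median of 98.6 (96.3 to 99.6). GRM7 is a glutamate receptor and EDEM1 acts in the degradation of misfolded glycoproteins. The most remote region called in all 21 outside the centromere gaps was chr4:33511911-33513225 in the same PCDH7 gap, 2365 kb from a gene, with percentiles of 80.6 to 94.2. The widest was chr14:106337829-106360174 (22346 bp) in the IGH immunoglobulin locus, at 62.0 to 100.0. As a group, the 597 had a median percentile of 74.0, the 53 of the centromere gaps 85.4 and the 23905 of the rest called in all 21 had 82.3. The first 10% of the lists held 87 of the 597 (14.6%), 22 of the 53 (41.5%) and 6771 of the 23905 (28.3%).

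The gap with the most desert regions was the start of chromosome 22 up to OR11H1, an olfactory receptor gene, with 268 regions, of which 8 were called in all 21 and 92 in 1 library. Next were AGA to TENM3 on chromosome 4 with 189 regions (10 in all 21), MAT2B to TENM2 on chromosome 5 with 183 (17) and TMEFF2 to SLC39A10 with 176 (9). PCDH7 to ARAP2 held 171 (12), NUDT12 to EFNA5 170 (7), the chromosome 20 centromere gap from ZNF337 155 (2), C4orf33 to PCDH10 140 (9), ZEB2 to ACVR2A 127 (10) and OTOL1 to SI 125 (2). MAT2B to TENM2 had the most regions called in all 21 of any gap. OTOL1 to SI had 1.60% of its regions called in all 21, and ZEB2 to ACVR2A 7.87%. ZEB2 is a transcription factor of neural crest and of myeloid cells. Over the 206 gaps with at least 10 regions and no centromere, the share called in all 21 had a median of 5.56% and a highest value of 43.5%, and 50 such gaps had none. The highest was BOD1L1 to CPEB2 on chromosome 4, with 10 of 23 regions called in all 21 and 4 in 1 library.

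Deserts took unequal shares of the chromosomes. They held 14.5% of the regions of chromosome 13, 14.4% of chromosome 22 and 12.1% of chromosome 4, and 1.54%, 1.74% and 2.01% of chromosomes 15, 17 and 19. Chromosome 4 had 99 of the 650 regions called in all 21, the most of any autosome, and chromosome 2 had 80.

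By annotation, 2288 desert regions (22.6%) overlapped a RefSeq lncRNA gene, against 17.7% of the rest, and 140 (1.39%) a pseudogene, against 1.79%. No non-coding gene was annotated under 7614 desert regions (75.4%). Among desert regions called in all 21, 180 (27.7%) overlapped a lncRNA, against 21.3% of the rest called in all 21; among those called in 1 library it was 1048 (21.6%), against 16.7%. The start window of a non-coding RNA was touched by 59 desert regions (0.584%), against 3674 of the rest (2.45%), and by 9 of the 650 called in all 21 (1.38%), against 1901 of 23905 (7.95%). The start windows listed in deserts left out chromosome 8, while the 10104 and 650 regions include 427 and 24 on it. These desert shares may therefore be too low. Known miRNA genes lay under 7 desert regions.

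The nearest coding gene was compared with 3 gene lists as a description. A gene of the adhesion and axon guidance list (76 of 78 genes matched) was nearest to 1850 desert regions (18.3%), against 2047 of the 68870 other regions outside gene spans (2.97%). TENM3 was nearest to 103, TMEFF2 to 95, PCDH7 to 92, TENM2 to 86, and SLITRK1, a synaptic membrane protein, to 84. Developmental transcription factors were nearest to 288 desert regions (2.85%), against 2.00% of the others, led by ZEB2 with 58 and NR2F1 with 29. The immune and myeloid list was nearest to 144 (1.43%), against 1.58%, and 8 of its genes accounted for all of them. PLA2G4A, a phospholipase that releases arachidonic acid, was nearest to 73 and RGS18 to 24. Among regions called in all 21, the adhesion list was nearest to 139 of 650 (21.4%), against 165 of 8204 other regions outside gene spans (2.01%), and the immune list to 7 (1.08%), against 178 (2.17%). Among desert regions called in 1 library, the adhesion list was nearest to 913 of 4842 (18.9%) and the immune list to 73 (1.51%). Neighbouring regions share their nearest gene, so these counts are not independent. Gene positions set which genes flank a desert, so the contrast with regions nearer to genes does not measure accessibility.

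Deserts took 2.66% to 5.84% of the autosomal peaks of a library. TREM2-R47H had 2.66%, 3.26% and 3.05% in replicates 1, 2 and 3, and TREM2-KO had 2.74%, 5.84% and 4.80%. SORL1-A528T had 3.15%, 4.84% and 3.45%, and SORL1-KO 2.83%, 3.15% and 3.05%. CD33 SNP had 2.87%, 3.80% and 3.72%, INPP5D SNP 2.71%, 3.80% and 4.01%, and WT 3.79%, 3.67% and 3.87%. All TREM2-R47H and SORL1-KO libraries lay below all WT libraries, and the other 4 lines overlapped WT. In every edited line replicate 1 had the lowest share, while WT replicate 1 was like the other WT libraries. The exact Clopper-Pearson 95% interval, which covers counting error only, was 5.66% to 6.03% in TREM2-KO replicate 2. It was 3.11% to 3.42% in TREM2-R47H replicate 2 and 3.01% to 3.30% in SORL1-KO replicate 2, which overlap. The share is a fraction of called peaks, so a lower share need not reflect access. It also changes with the number of peaks called outside deserts and with which weak peaks pass the threshold of the caller. Fewer cells in which a region is open and less access per cell cannot be told apart in these data either.

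The mean share was 2.99% ± 0.306 in TREM2-R47H and 3.01% ± 0.164 in SORL1-KO, against 3.78% ± 0.105 in WT (SD, n = 3 each), with exact permutation p = 0.10 for each, two-sided, the smallest that 3 against 3 allows, and an adjusted p of 0.30 over 6 comparisons. The differences of -0.79 and -0.76 percentage points had the same sign within each replicate number, from -1.13 to -0.40 in TREM2-R47H and from -0.96 to -0.51 in SORL1-KO. With every list cut to the length of the shortest, they were -0.36 (exact permutation p = 0.50) and -0.33 (exact permutation p = 0.40), with an adjusted p of 0.90 each. The percent of tags in peaks was also below WT within each replicate number in both lines. In replicates 1, 2 and 3 it was 47.03, 66.27 and 66.51 in TREM2-R47H and 46.43, 69.2 and 58.44 in SORL1-KO. WT had 57.59, 72.48 and 73.16. TREM2-KO was below WT in each as well (45.71, 68 and 71.57), with a higher mean share. The part of this measure in the shares was not tested. TREM2-KO averaged 4.46% ± 1.58, and its difference from WT of 0.69 percentage points (exact permutation p = 0.50, adjusted p = 0.75) was -1.04, 2.18 and 0.93 within replicate numbers 1, 2 and 3. Without TREM2-KO replicate 2 it was -0.0045, and with lists of equal length 0.26. SORL1-A528T averaged 3.82% ± 0.897, a difference of 0.039 percentage points (exact permutation p = 1, adjusted p = 1) that was -0.47 without its replicate 2 and 0.49 with lists of equal length. CD33 SNP averaged 3.46% ± 0.514 and INPP5D SNP 3.50% ± 0.696, with differences from WT of -0.31 and -0.27 percentage points (exact permutation p = 0.50 and 0.90, adjusted p = 0.75 and 1). Without replicate 1 of the line these were -0.015 and 0.13, and with lists of equal length -0.23 and -0.070. Over all 7 lines F was 1.31 with a permutation p of 0.294; without the replicate 1 libraries F was 4.89 with p = 0.0336.

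**Figure D4:**
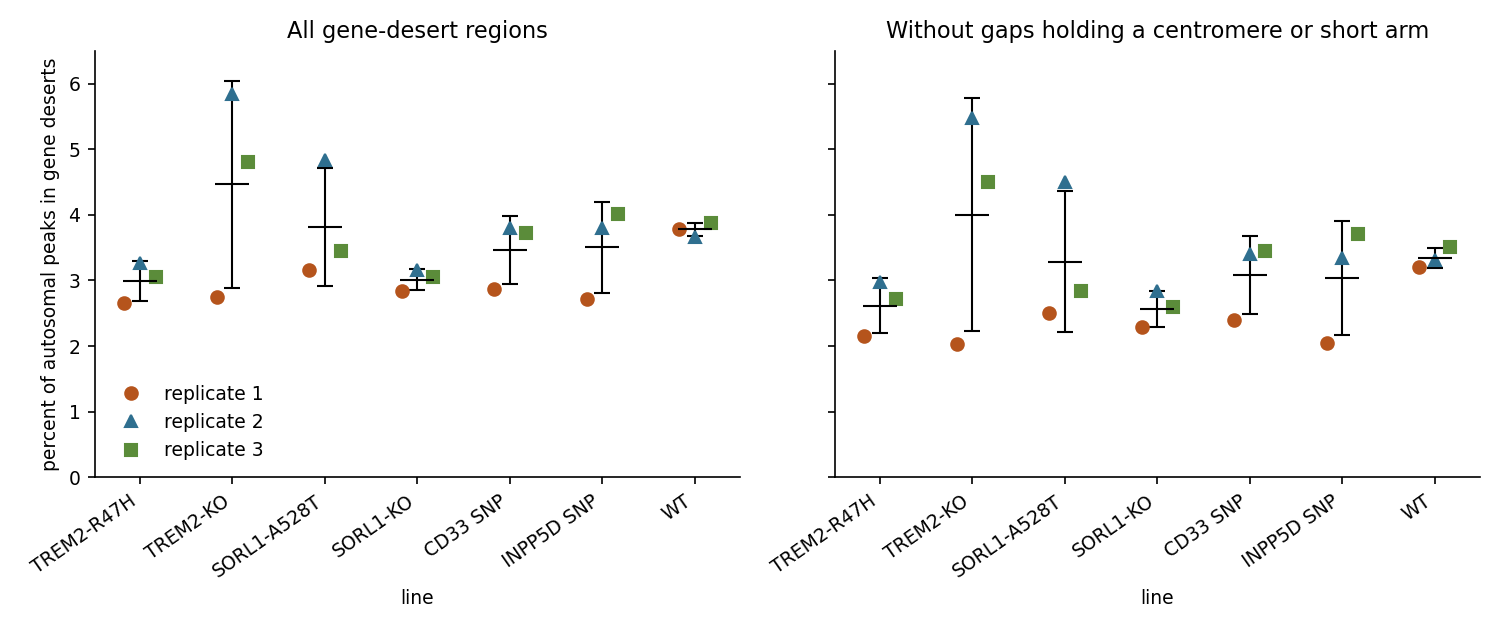
Percent of a library's autosomal peaks that lie in gene deserts, by line, for all desert regions (left) and without the gaps holding a centromere or short arm (right). Points are libraries, shaped by replicate number, with the mean and SD of each line (n = 3). All TREM2-R47H and SORL1-KO libraries lie below the WT libraries on the left, and TREM2-KO replicate 2 is highest at 5.84%.

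The libraries with high desert shares were not the deepest ones. TREM2-KO replicate 2, with 15.8 M tags, had 3698 desert regions, of which 21.98% were called in no other library, against 5.12% of its other regions. TREM2-KO replicate 3, with 49.0 M tags, had 4643 desert regions, 17.5% of them in no other library. SORL1-A528T replicate 2 had 1794, with 15.8% in no other library, and its header gave an estimated fragment length of 494. The other replicate 2 libraries had 136 in 4 lines, 186 in INPP5D SNP and 262 in WT, and the 14 libraries of replicates 1 and 3 had 74. Among the WT libraries 8.55% to 12.2% of desert regions were called in no other library, and in TREM2-R47H 2.37% to 4.52%. The part that library quality plays in these shares was not tested.

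Desert regions of a line recurred in its 3 libraries to different degrees. TREM2-R47H called 3171 desert regions in any library and 1293 in all 3 (40.8%), SORL1-KO 3105 and 1205 (38.8%), CD33 SNP 4301 and 1476 (34.3%), INPP5D SNP 4145 and 1185 (28.6%), SORL1-A528T 3601 and 975 (27.1%), TREM2-KO 6157 and 1253 (20.4%), and WT 4791 and 1275 (26.6%). The Jaccard index of desert calls, the shared fraction of regions called in either of 2 libraries, was 0.449 on average within a line and 0.431 between lines, over pairs with different replicate numbers. The difference of 0.0178 had a permutation p of 0.237, two-sided, and a permutation p of 0.00687 when line labels were permuted only within replicate numbers, which depth follows. Where 2 libraries of different lines carried the same replicate number, the index was 0.487 ± 0.0821 (SD over 63 pairs that share libraries), with means of 0.541, 0.409 and 0.510 for replicate numbers 1, 2 and 3. For regions outside deserts the mean was 0.584 within a line, 0.573 between lines with different replicate numbers and 0.661 between lines with the same number.

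Individual desert regions separated an edited line from WT in small numbers. A region was counted as gained when it was called in 3 of 3 libraries of the line and 0 of 3 WT libraries, and as lost in the opposite case. The 6 comparisons share the WT libraries. TREM2-R47H gained 12 and lost 48 desert regions, 0.119% and 0.475% of them, against 0.124% and 0.298% of all autosomal regions. TREM2-KO gained 9 and lost 4 (0.0891% and 0.0396%, against 0.0462% and 0.0568%). SORL1-A528T gained 4 and lost 55 (0.0396% and 0.544%, against 0.0119% and 0.477%). SORL1-KO gained 3 and lost 43 (0.0297% and 0.426%, against 0.0637% and 0.227%). CD33 SNP gained 7 and lost 8 (0.0693% and 0.0792%, against 0.0912% and 0.0412%), and INPP5D SNP gained 2 and lost 21 (0.0198% and 0.208%, against 0.0268% and 0.14%). As deposited, losses outnumbered gains in deserts in 5 of the 6 lines, but this balance depended on the libraries used. TREM2-KO, with more gains than losses, had 25 gained and 98 lost without replicate 2 of both lines and 33 gained and 77 lost without replicate 3, against 439 gained and 17 lost without replicate 1. CD33 SNP had 89 gained and 31 lost without replicate 1. No test was made of these counts. With every list cut to the length of the shortest, the losses were 22 in TREM2-R47H, 15 in SORL1-A528T, 15 in SORL1-KO, 2 in CD33 SNP and 4 in INPP5D SNP, and the gains were 9 in SORL1-A528T, 6 in SORL1-KO and 3 in CD33 SNP.

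**Figure D5:**
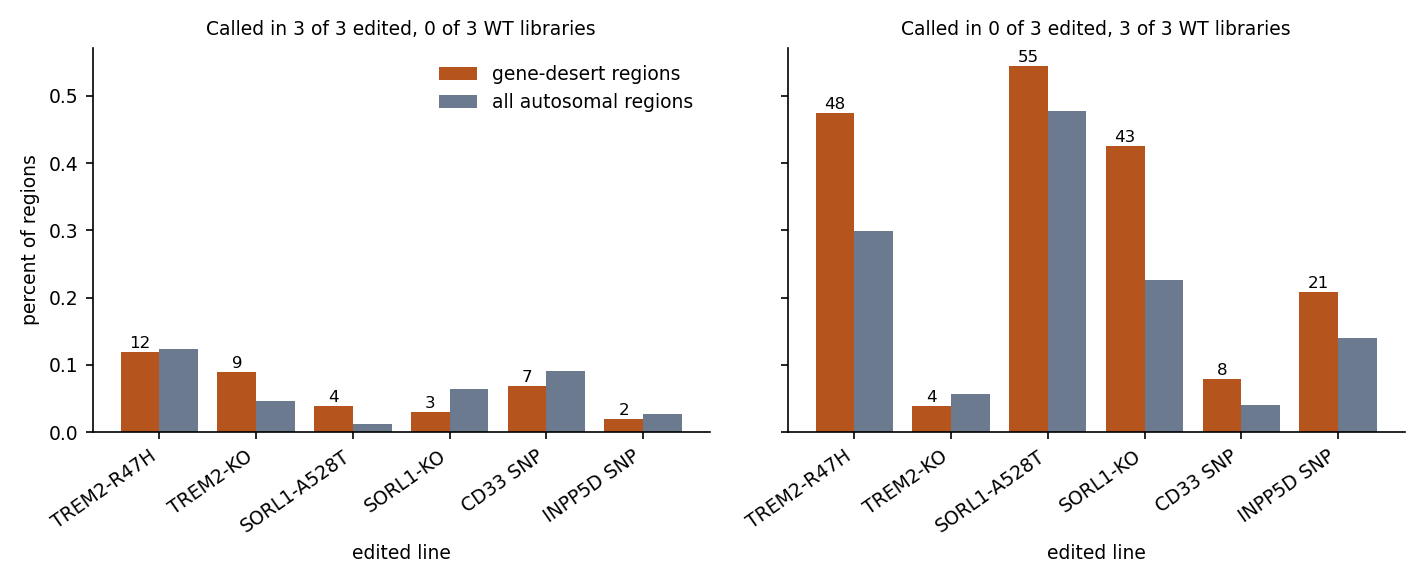
Percent of gene-desert regions and of all autosomal regions that were called in 3 of 3 libraries of an edited line and 0 of 3 of WT (left) or the reverse (right), by edited line. Numbers over the bars count desert regions; SORL1-A528T (55), TREM2-R47H (48) and SORL1-KO (43) lost the most.

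The lost regions named here, up to 3 per line that stood earliest in the lists, had median percentiles of 24.0 to 64.95 in the libraries that called them. TREM2-R47H called chr3:109887150-109889288, between DPPA4 and the adhesion molecule NECTIN3, in 0 of 3 libraries, against 3 of 3 in WT; 14 of the 21 libraries called it, at a median percentile of 64.95. It also lacked chr6:60737634-60738924, in the centromere gap between PRIM2 and KHDRBS2, and chr16:62817452-62818431, between the cadherins CDH8 and CDH11, each called in 16 libraries including all those of TREM2-KO, SORL1-A528T, CD33 SNP, INPP5D SNP and WT. SORL1-A528T lacked chr16:63312116-63313198 in the same cadherin gap, called in 17 libraries, and chr7:9888708-9890326 beside NXPH1, a neurexin ligand, also called in 17. SORL1-KO lacked chr4:136324234-136325378 near PCDH18, a protocadherin, which 14 libraries called. INPP5D SNP lacked chr5:85564997-85565837 beside EDIL3, an extracellular matrix protein, called in 14. CD33 SNP lacked chr13:65342720-65343512 beside PCDH9, called in the 3 WT libraries and TREM2-KO replicate 3 alone.

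The gained regions, chosen in the same way, had median percentiles of 7.54 to 55.2. TREM2-R47H called chr4:33826265-33827120, 2178 kb from a gene in the PCDH7 gap, in 3 of 3 libraries, against 0 of 3 in WT; TREM2-KO replicate 3 and INPP5D SNP replicate 3 called it too, and its median percentile was 32.8. TREM2-KO called chr7:119643285-119644392 in 3 of 3 libraries, against 0 of 3 in WT, with a median percentile of 24.5; it lies in LINC02476 between ANKRD7 and the potassium channel gene KCND2. CD33 SNP and INPP5D SNP each called chr20:29221295-29222817, in a centromere gap, in 3 of 3 libraries, and 11 libraries called it in all. SORL1-KO called chr22:11470185-11474354, a short-arm region of 4170 bp, in 3 of 3 libraries, as did 7 libraries of other edited lines, and no WT library.

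Regions that marked 1 line among all 7 were rare. Only chr21:22574976-22575663 beside NCAM2 was called in all TREM2-R47H libraries and in none of the other 18, at a median percentile of 4.87. For TREM2-KO it was chr14:98560064-98560684, between VRK1 and BCL11B, at 8.83, and for SORL1-A528T chr4:180545228-180545811, in the AGA and TENM3 gap, at 7.54. SORL1-KO, CD33 SNP, INPP5D SNP and WT had none. Over all autosomal regions such counts were 10 in TREM2-R47H, 5 in TREM2-KO, 1 in SORL1-A528T, 1 in SORL1-KO, 3 in CD33 SNP, 0 in INPP5D SNP and 5 in WT. In the other direction, SORL1-A528T alone lacked chr2:34120943-34121904, in LINC01317 between FAM98A and CRIM1, and chr9:81078760-81079635, between the corepressors TLE4 and TLE1. Both were called in all 18 other libraries, at median percentiles of 43.3 and 39.0. Among all autosomal regions SORL1-A528T alone lacked 38, and no other line more than 7. SORL1-A528T also had the shortest peak list within each replicate number, with 69732, 39736 and 78438 peaks in replicates 1, 2 and 3. A short list makes absence from all 3 libraries more likely, and the part of list length in these counts was not tested. No desert region was missing from 1 other line alone.

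To ask whether whole deserts differed, the depth-adjusted call of a region (1 or 0, less the average of that library over all regions of equal recurrence) was averaged over each desert gap with at least 5 regions and over 1 Mb windows of the rest. This gave 250 desert gaps among 2870 segments. With limma and Benjamini-Hochberg adjustment over all segments, 0 desert gaps and 0 segments (0% of all tested) had an adjusted p under 0.05 in any of the 6 comparisons with WT. At an unadjusted p under 0.05 there were 19 desert gaps in TREM2-R47H (7.60%, 17 of them lower; 5.68% of all segments), 13 in TREM2-KO (5.20%, 12 of them higher; 2.30%) and 6 in SORL1-A528T (2.40%; 2.40%). SORL1-KO had 9 (3.60%, 8 of them lower; 2.44%), CD33 SNP 4 (1.60%; 0.941%) and INPP5D SNP 2 (0.80%; 1.29%). The median difference of the desert gaps was -0.060 in TREM2-R47H and 0.045 in TREM2-KO, against -0.014 and -0.0012 over all segments. The counts above come from the fit without the replicate number. With that number as a block, 62 of the 250 desert gaps had an unadjusted limma p under 0.05 in TREM2-R47H. TREM2-KO then had 46, SORL1-KO 27, SORL1-A528T 21, CD33 SNP 13 and INPP5D SNP 9. Still 0 desert gaps passed the adjustment, with a smallest limma adjusted p of 0.0551 in TREM2-R47H. The unadjusted share of all segments and the direction of the differences are not given for the blocked fit. The counts of that fit therefore do not show whether desert gaps stood out from the other segments.

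The desert with the smallest p in each comparison was described with the share of its regions called. In the gap from JAG1, a Notch ligand, to BTBD3 on chromosome 20 (19 regions), TREM2-R47H called 68.4%, 47.4% and 68.4%, against 47.4%, 21.1% and 47.4% in WT, in replicates 1, 2 and 3. The depth-adjusted difference was 0.236 ± 0.0536 (SE, limma adjusted p = 0.438). Each TREM2-R47H library was above or level with the WT libraries. The mean share called in this gap was 61.4% in TREM2-R47H, 56.1% in CD33 SNP, 47.4% in TREM2-KO and 42.1% in SORL1-KO. It was 40.4% in INPP5D SNP and 36.8% in SORL1-A528T, against 38.6% in WT. In the gap between SORCS3 and SORCS1 on chromosome 10 (16 regions), SORL1-KO called 31.2%, 12.5% and 25.0%, against 56.2%, 25.0% and 56.2% in WT (-0.197 ± 0.0659, SE; limma adjusted p = 0.912). These genes encode sorting receptors of the VPS10 family. The mean share called in this gap was 22.9% in SORL1-KO, 31.2% in SORL1-A528T, 31.2% in INPP5D SNP, 35.4% in TREM2-R47H, 39.6% in CD33 SNP and 47.9% in TREM2-KO, against 45.8% in WT. The SORL1-KO and WT values overlapped between replicate numbers but not within them.

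In the NAALADL2 to TBL1XR1 gap on chromosome 3 (7 regions), TREM2-KO called 28.6%, 28.6% and 71.4%, against 28.6%, 0% and 28.6% in WT (limma adjusted p = 0.995). SORL1-A528T called 33.3% of 9 regions between SQOR and SEMA6D, an axon guidance ligand, in each library, against 22.2% in each WT library (limma adjusted p = 0.974), which is a difference of 1 region. CD33 SNP called 35.3% of 17 regions between PLXNA2, a semaphorin receptor, and CAMK1G in each library, against 52.9%, 41.2% and 47.1% in WT (limma adjusted p = 0.999). INPP5D SNP called 23.1%, 15.4% and 30.8% of 13 regions between POM121L12 and VSTM2A, against 15.4%, 7.69% and 23.1% in WT (limma adjusted p = 1.00). In the SQOR to SEMA6D gap TREM2-KO also averaged 33.3%, and the remaining edited lines 22.2% to 25.9%. The other edited lines averaged 27.5% to 41.2% in the PLXNA2 to CAMK1G gap. In the POM121L12 to VSTM2A gap the other edited lines averaged 10.3% to 30.8%. None of the named differences from WT passed the adjustment. Leaving out TREM2-KO replicate 1 gave 2 desert gaps that did, MTRR to SEMA5A on chromosome 5 and MMP16 to RIPK2 on chromosome 8, both higher in TREM2-KO than in WT (limma adjusted p = 0.0341 each). They were 2 of 7 segments called among all 2870 in that fit. The TREM2-KO libraries left in it were replicates 2 and 3, which had 813 and 811 desert regions called in no other library. In that fit 86 of the 250 desert gaps had an unadjusted limma p under 0.05, so low p-values were not particular to these 2 gaps.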

How the data were processed

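ATAC-seq peak lists of 21 libraries, 3 for each of 7 isogenic lines of microglia-like cells, were analysed. Per the submitters' processing notes the tools included cutadapt 1.18, STAR 2.7, HOMER 4.10 and DESeq2, whose use is not given. Per the file headers, the authors called peaks in each library alone with HOMER's findPeaks (histone style), setting peaks to 500 bp at least 1000 bp apart, 4.00-fold over the local 10000 bp and a Poisson p of 1.00e-04. The deposited score is 1 throughout, which leaves positions and list order as the only measurements. Neither a read shift for the transposase nor the genome build is stated in the labels or headers.

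Gene spans, names and promoter windows came from RefSeq tables of GRCh38.p14 (18969 autosomal coding genes; 153 entries off the primary assembly were left out). To check the build, 37938 gene ends were placed on the regions of all 21 libraries: 22.1% hit one, against 2.79% and 2.88% after a shift of 10 kb either way. Coordinates count from 1. The deposited lists were read in the BED convention, so printed starts are 1 higher than the deposited ones. Peaks on X, Y and M (3.87%) were left out. A call meant at least 1 peak of the library within the region. The members, gene lists and tests were chosen with earlier results of these data known.

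Named regions were the 15 called in all 21 with the highest median percentile, the same outside centromere gaps (added after seeing the data), the widest and the most remote, and up to 3 gained and lost per line; of these the text gives those that it can describe. The 10 gaps with the most regions and the gap with the smallest p per comparison are also named.

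Lines were compared with exact permutation tests over libraries (two-sided), 100000 permutations for F and the Jaccard index, and limma 3.58.1 in R 4.3.3 for segments. limma was fitted over all 21 libraries without the replicate number. The scripts were tested on simulated data. Python 3.11.15, numpy 2.4.6, pandas 2.3.3, scipy 1.17.1 and matplotlib 3.10.9 were used. Alternatives were a distance of 1 Mb, 50% cover, lists of equal length, the first 50% of each list, regions in at least 2 libraries, at least 10 regions a segment, the replicate number as a block, and leaving out libraries or centromere gaps. Intervals cover counting error only.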

Additional observations from a re-analysis of the deposited data

Results flagged for a closer look

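The X chromosome was outside all comparisons. Measured in the same way, it had 378 regions more than 500 kb from a coding gene, of 6570 X regions (5.75%). Every one of the 21 libraries called 40 of them (10.6%), and 161 (42.6%) came from a single library.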

How the results depend on the processing

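Of 295 alternative values over 32 results, 227 kept their direction and side of the threshold or stayed near the reported value, 61 moved, 5 changed sign and 2 passed the threshold where the reported value had not. The 6 comparisons of desert share with WT could not pass the threshold at any setting. Their smallest exact permutation p is 0.10 for 3 against 3 libraries and 0.25 for 3 pairs, and leaving out a library does not lower it. They could change only in sign, so their side of the threshold says nothing about stability. The alternatives without centromere gaps and without TREM2-KO replicate 2 throughout were chosen after seeing the data. The deposited lists hold no peak height, so a call next to the threshold cannot be told from a strong one, and the number of calls follows depth. The causes of the changes below were not tested.

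The number of desert regions was 2960 at a distance of 1 Mb, 2127 in the first 50% of each list and 3049 with lists of equal length. Regions called in all 21 then numbered 190, 310 and 367, and 307 with at least 50% cover. The share called in 1 library was 22.8% in the first 50% of each list, 41.1% with lists of equal length, 49.4% with 50% cover and 49.0% without centromere gaps. Leaving out a replicate number in turn gave 7607 to 9131 regions, 659 to 939 called in all libraries and 43.2% to 51.4% called in 1; without TREM2-KO replicate 2 alone there were 9298 regions, 655 called in all libraries.

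With lists of equal length, gains were 3 in CD33 SNP, 9 in SORL1-A528T and 6 in SORL1-KO, and losses 22 in TREM2-R47H, 15 in SORL1-A528T, 15 in SORL1-KO, 2 in CD33 SNP and 4 in INPP5D SNP. Gains in INPP5D SNP were 1 with 50% cover and 0 without centromere gaps. With 2 libraries a line, which eases the rule, gains ranged over 28 to 70 in TREM2-R47H, 25 to 439 in TREM2-KO, 21 to 44 in SORL1-A528T, 25 to 42 in SORL1-KO, 42 to 89 in CD33 SNP and 18 to 48 in INPP5D SNP. Losses ranged over 106 to 282, 17 to 98, 118 to 401, 102 to 325, 31 to 118 and 55 to 178 in the same order of lines.

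The desert share of SORL1-A528T minus WT was -0.059 without centromere gaps, -0.016 without WT replicate 2 and -0.47 without its own replicate 2. That of TREM2-KO was -0.0045 without its replicate 2 and that of INPP5D SNP 0.13 without its replicate 1. Leaving out 1 library gave ranges of -0.92 to -0.62 in TREM2-R47H, -0.0045 to 1.55 in TREM2-KO, -0.47 to 0.37 in SORL1-A528T, -0.84 to -0.67 in SORL1-KO, -0.48 to -0.015 in CD33 SNP and -0.52 to 0.13 in INPP5D SNP. F among lines ranged over 0.487 to 4.89. Desert gaps past the threshold numbered 0 to 2 in TREM2-KO and 0 in the other 5 lines; over all segments, 7 were called in TREM2-KO without its replicate 1 and 1 in SORL1-A528T without its replicate 1.

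The desert calls of same-numbered libraries of an edited line and WT deviated together in every pair. The correlations ran from 0.045 to 0.217, and they were over 0.1 in all 3 pairs in CD33 SNP only. The main tests did not take the numbers to pair libraries, although depth follows them. Spread that same-numbered libraries share therefore remains in those tests. With the replicate number as a block, the difference in Jaccard index of 0.0178 had a permutation p of 0.00687. The blocked limma fit called 0 desert gaps, with 2 of all segments called in SORL1-A528T. The smallest limma adjusted p of a desert gap was 0.0551 in TREM2-R47H and 0.0928 in SORL1-A528T. It was 0.301 in TREM2-KO, 0.341 in SORL1-KO, 0.987 in INPP5D SNP and 0.998 in CD33 SNP.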
